A study of Mus musculus with 27 samples.

Results

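The cytosolic ribosome is built from a small and a large subunit, each made of ribosomal RNA and a fixed set of ribosomal proteins. The transcripts of these proteins are among the most abundant in growing and in differentiated cells. Most begin with a C followed by a run of pyrimidines (a 5′ terminal oligopyrimidine run, or TOP), which lets growth signalling through mTOR control their translation as a group. In the developing cortex, progenitors divide and make neurons while ribosome production and protein synthesis are under developmental control. Eomes (Tbr2) is a T-box transcription factor that marks the intermediate progenitors of excitatory cortical neurons.

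Cytosolic ribosomal protein genes were taken as all probes of an Illumina mouse BeadChip whose annotated symbol was Rpl or Rps with a number (and at most 1 of the letters a, x or y), Rplp0, Rplp1, Rplp2 or Rpsa. This gave 84 probes of 55 genes, and 71 probes of 50 genes were detected above the negative control beads (detection p under 0.01) in at least 5 of the 27 arrays. These 71 are described here, of 20498 probes kept by the same filter and 45281 on the array. They held 20 genes of the small subunit with 27 probes and 30 genes of the large subunit with 44 probes. The 5 genes with no kept probe were Rpl14, Rpl17, Rpl6, Rps23 and Rpsa, and the 13 probes left out were each detected in at most 3 arrays. No values chose the members apart from this detection filter, which a probe could pass through a single group.

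The arrays fell into 5 groups. The P2 neurons (5 arrays) were Tbr2-lineage cells carrying GFP, sorted at postnatal day 2 (P2) from brain cortex. Arrays labelled Tbr2 conditional knockout (cKO) came from embryonic cortex at embryonic day 16 (E16, 6 arrays) and day 13 (E13, 5 arrays). The embryo arrays, at E16 (5 arrays) and E13 (6 arrays), have no tissue or genotype in their labels, and WT stands only in their column names. The labels give no strain, no Cre driver, no deleted part of Tbr2, no promoter behind the GFP and no statement that arrays of 1 group came from separate animals, so p-values measure only the spread between these arrays, which may be technical. Arrays are numbered within a group by the order of their columns, which is a name only.

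The embryo, cKO and P2 arrays came in 3 separate tables, so table and group cannot be told apart when P2 or cKO arrays are set against embryo arrays, while the stage comparisons lie within a table. Eomes was not lower in the arrays labelled cKO, at 10.27 to 11.61 log2 units at E16 and 11.41 to 11.63 at E13, against 10.01 to 10.88 in E16 embryo and 10.85 to 11.62 in E13 embryo arrays. Where Tbr2 was deleted is not given, so whether its probe checks the deletion is unknown. E13 cKO array 2 and E16 cKO array 3 lay nearer the embryo arrays than the other cKO arrays. Over the 535 probes called between cKO and embryo at E13 with the array itself left out, E13 cKO array 2 lay a mean 1.02 log2 units from the other cKO arrays and 0.199 from the embryo arrays. Over the 289 probes called likewise at E16, E16 cKO array 3 lay 1.09 from cKO and 0.261 from embryo arrays. The other 9 cKO arrays were each measured over their own 17 to 69 probes called likewise, from fits that still held these 2 arrays. They lay 0.331 to 0.484 from cKO and 1.41 to 1.76 from embryo arrays. Counts of calls with cKO arrays are therefore also given without these 2.

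The starts of the genes that the results below turn on are shown first, because the pyrimidine run at the start is what these mRNAs are known for. RefSeq (GRCm38.p6) gave 49 windows of 300 bases, 250 before and 50 from the annotated start, for 41 of the 50 genes. Each stretch below holds the 40 bases before the annotated start and the 20 bases from it on, 5′ to 3′ on the gene strand. Capitals mark a C followed by at least 4 pyrimidines (C or T), taken at the position nearest the start within 5 bases of it. Pyrimidines directly before that C are not in capitals, so a longer run can begin further upstream. In the first 4 the marked stretch begins at the annotated start, and each has a pyrimidine directly before it. They are Rps15a at chr7:118116128-118116187 on the minus strand, Rpl38 at chr11:114668540-114668599 on the plus strand, Rpl28 at chr7:4792925-4792984 on the plus strand and Rplp2 at chr7:141447611-141447670 on the plus strand.
Rps15a: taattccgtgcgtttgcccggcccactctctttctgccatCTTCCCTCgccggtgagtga
Rpl38: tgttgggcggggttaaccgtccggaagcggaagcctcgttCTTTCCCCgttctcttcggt
Rpl28: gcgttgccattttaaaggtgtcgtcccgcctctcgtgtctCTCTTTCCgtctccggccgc
Rplp2: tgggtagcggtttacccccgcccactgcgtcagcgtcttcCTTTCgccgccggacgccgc

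In the next 4 the marked stretch begins within 5 bases of the annotated start. They are Rpl13a at chr7:45128726-45128785 on the minus strand, Rpl31 at chr1:39367811-39367870 on the plus strand, Rps9 at chr7:3704001-3704060 on the plus strand and Rps26 at chr10:128626487-128626546 on the minus strand.
Rpl13a: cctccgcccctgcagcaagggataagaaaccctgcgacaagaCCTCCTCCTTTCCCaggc
Rpl31: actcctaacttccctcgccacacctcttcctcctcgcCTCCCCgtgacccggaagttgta
Rps9: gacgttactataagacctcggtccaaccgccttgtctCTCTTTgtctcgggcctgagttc
Rps26: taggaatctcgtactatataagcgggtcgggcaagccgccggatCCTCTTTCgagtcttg

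In the last 2 no such run lies within 5 bases of the annotated start. They are Rps25 at chr9:44407674-44407733 on the plus strand and Rplp0 at chr5:115559427-115559486 on the plus strand.
Rps25: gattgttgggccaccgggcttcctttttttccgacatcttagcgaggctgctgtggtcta
Rplp0: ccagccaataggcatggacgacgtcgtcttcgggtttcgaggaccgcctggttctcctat

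A C followed by at least 4 pyrimidines, with or without pyrimidines before it, lay exactly at the start in 8 of 49 windows (16.3%). That compares with 2.51% of all 32851 windows. It lay within 5 bases of the start in 22 windows (44.9%), against 18.3% of all. Of 4 motifs searched on both strands, each counted whether or not it overlapped another, CCGGAAG was in 38.8% of the windows against 8.86% of all, AAGATGG in 14.3% against 6.34%, GGGCGG in 61.2% against 35.7% and TATAAA in 10.2% against 13.6%. A match is a description of letters and not a binding site, and starts in the annotation can be some bases from those used in these cells. Relative to E16 embryo arrays 5 of the 20 genes with a run near the start were called higher in P2 neurons and 7 lower (median −0.06 log2 units), and of 21 without one 4 higher and 8 lower (median −0.07), by quantile normalisation, beside 28.5% higher and 40.8% lower of all kept probes. With arrays scaled to a common median instead, 0 were higher and 13 lower of the 20 (median −0.456), and 0 and 17 of the 21 (−0.486), beside 26.4% and 44% of all.

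Most ribosomal protein probes sat at the top of the array. Of the 71, 50 lay above the 90th percentile of kept probes by mean level, 30 above the 99th, and 9 below the 50th. Among the 100 brightest probes of each array, 13 to 16 were ribosomal protein probes in P2 neurons and 13 to 22 in E16 cKO arrays. The signal was detected in all 27 arrays for 66 probes. The 5 others were the Rps20 probe, detected in the 5 P2 arrays and in no embryonic array, and the dimmest probes of Rplp0 (17 arrays), Rpl27a (20), Rps13 (23) and Rpl28 (25). A gene stands below by its brightest kept probe unless another is named. Of the 50 genes, 35 had 1 kept probe and 15 had several, and which transcripts each probe matches was not analysed here.

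After quantile normalisation the level of the set as a whole differed little over the 5 groups. The median over the 71 probes of each array's deviation from the probe's mean over all arrays averaged −0.062 ± 0.0527 log2 units in P2 neurons (SD, n = 5). It averaged 0.055 ± 0.0862 in E16 cKO (n = 6), 0.00437 ± 0.0744 in E13 cKO (n = 5), 0.0239 ± 0.0514 in E16 embryo (n = 5) and 0.00125 ± 0.0533 in E13 embryo arrays (n = 6). Single arrays ran from −0.114 to 0.00842 in P2 neurons, and the 22 embryonic arrays from −0.0975 to 0.149, so the ranges overlapped.

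**Figure D1:**
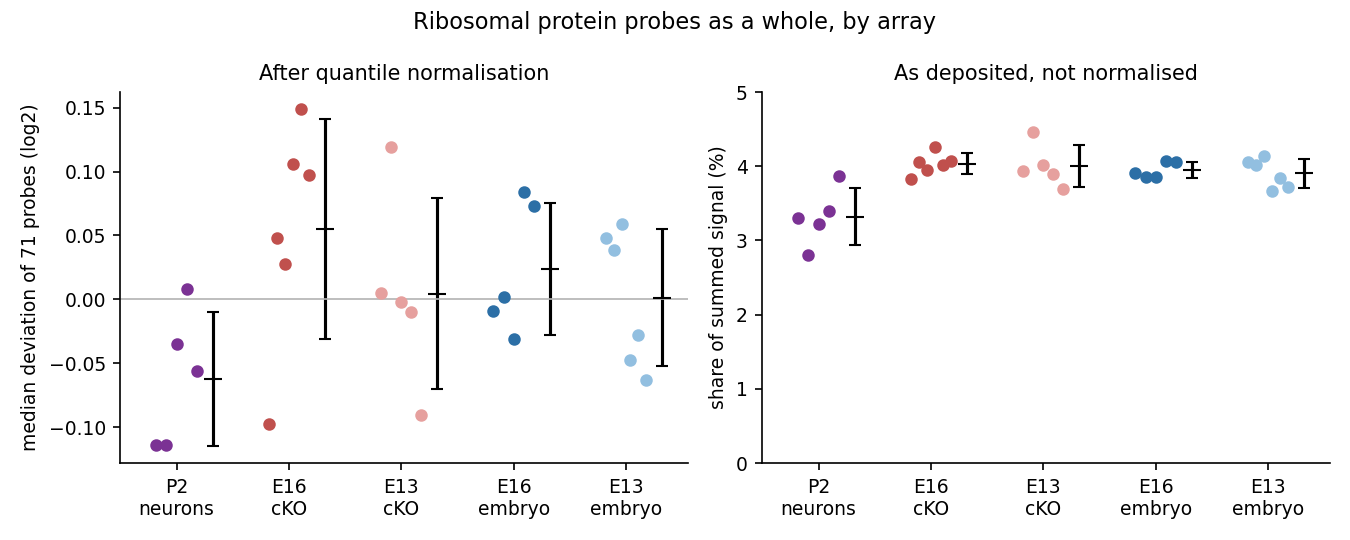
Each point is 1 array, with groups along the x axis in the order P2, E16 cKO, E13 cKO, E16 embryo and E13 embryo; bars are mean ± SD. One measure is the median log2 deviation of the 71 ribosomal protein probes after quantile normalisation, where P2 arrays (−0.114 to 0.00842) overlap the embryonic arrays; the other is the share of the summed raw signal in percent, where most P2 arrays (2.81% to 3.87%) lie below the embryonic arrays (3.66% to 4.46%).

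The raw signals gave another picture for P2 neurons. The 71 probes held 2.81% to 3.87% of the summed positive signal of all probes in P2 arrays (3.32% ± 0.38, SD, n = 5). They held 3.83% to 4.26% in E16 cKO, 3.69% to 4.46% in E13 cKO, 3.85% to 4.07% in E16 embryo and 3.66% to 4.14% in E13 embryo arrays. P2 arrays 1 to 4 lay below every embryonic array, and P2 array 5 lay within the embryonic range. The median raw signal over all probes was higher in P2 arrays (17.6 to 42.3) than in embryonic arrays (8.51 to 16.8), and P2 arrays 1 to 4 had more probes detected (41.1% to 42.9%) than every embryonic array (36.9% to 40%), with 39% in P2 array 5. The choice of normalisation bears on the same difference. P2 changes below are by quantile normalisation unless scaling to a common median is named, and those by scaling are given beside most of them. In RNA from many cells, fewer cells of a type and less RNA per cell cannot be told apart.

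Ribosomal protein probes varied little between arrays of 1 group, and they varied together. The median residual SD within groups was 0.161 log2 units over the 71 probes (0.127 over the brightest probe of each gene and 0.203 over the others). It was 0.253 over all kept probes and 0.158 over the 10% of kept probes with the highest mean, so the ribosomal protein probes and the brightest 10% had nearly the same spread. The mean pairwise Pearson correlation of the residuals over the 27 arrays was 0.194 between ribosomal protein probes, against 0.00223 between all kept probes and 0.00776 within the brightest 10%. This is a description: the probes share arrays, labelling and normalisation.

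The arrays labelled Tbr2 cKO were set against embryo arrays of the same stage, which asks whether ribosomal protein transcripts differ with the label. At E13, 0 of 71 probes passed an adjusted p under 0.05 (limma, Benjamini-Hochberg over all 20498 kept probes), beside 1.04% of all kept probes, and 0 had an unadjusted p under 0.05. The changes ran from −0.19 to 0.15 log2 units, with a median absolute change of 0.0364 against 0.105 over all kept probes. At E16, 0 of 71 passed, beside 0.283% of all kept probes, and 5 had an unadjusted p under 0.05. The median absolute change was 0.067 at E16, against 0.101 over all kept probes. Without E13 cKO array 2 and E16 cKO array 3, the counts stayed at 0 at both stages, beside 2.84% of all kept probes at E13 and 1.61% at E16, and 0 and 4 had an unadjusted p under 0.05.

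The 5 probes at E16 were single probes of different genes. Rps25, a small-subunit protein needed in yeast and human cells for initiation at internal ribosome entry sites, had a change of 0.23 (95% interval 0.02 to 0.43, unadjusted p = 0.0307, adjusted p = 0.70 by limma). The dimmest Rps13 probe had a change of 1.07 (adjusted p = 0.76). That probe was detected in 6 of 6 E16 cKO arrays and 3 of 5 E16 embryo arrays. The other 3 were Rpl21 at −0.29, the dimmest Rpl27a probe at −0.35 and a dimmer Rps24 probe (ILMN_1214875) at 0.39, with adjusted p of 0.62, 0.71 and 0.66 by limma.

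The intervals bound what these arrays could miss. The P stalk, formed by Rplp0 with Rplp1 and Rplp2, recruits elongation factors to the large subunit. Its genes were at −0.07, 0.02 and −0.03 at E16 for Rplp0, Rplp1 and Rplp2 and at −0.04, 0.01 and 0.03 at E13, none past the threshold. The 95% intervals were −0.32 to 0.18 for Rplp0, −0.14 to 0.18 for Rplp1 and −0.31 to 0.25 for Rplp2 at E16, and at E13 −0.28 to 0.21, −0.15 to 0.17 and −0.25 to 0.31. Rpl38, whose loss in the Tail short mouse disturbs translation of Hox mRNAs, had intervals of −0.12 to 0.18 at E16 and −0.10 to 0.20 at E13. Rpl10a, another protein reported to favour particular mRNAs, had intervals of −0.21 to 0.12 at E16 and −0.16 to 0.18 at E13. For the X-linked genes the intervals at E16 were −0.19 to 0.14 for Rps4x, −0.10 to 0.26 for Rpl36a and −0.08 to 0.29 for Rpl39, and at E13 they were −0.17 to 0.17, −0.19 to 0.16 and −0.24 to 0.13. A missed threshold does not show that the groups are alike; these intervals leave room for differences of up to 0.32 log2 units in size. With E13 cKO array 2 and E16 cKO array 3 left out, the widest of them was −0.382 to 0.131, for Rplp0 at E16.

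The E16 arrays were set against the E13 arrays, which asks how the transcripts change while the cortex passes through the main period of neuron production. In embryo arrays 1 probe rose and 3 fell of 71 (5.63%), beside 20.4% of all kept probes called (9.72% higher and 10.7% lower). In cKO arrays 5 rose and 2 fell (9.86%), beside 21.5% (10.2% higher and 11.3% lower). Ranges did not overlap for 1 probe higher and 1 lower in each, beside 14.4% of kept probes in embryo arrays (6.91% higher and 7.46% lower) and 11.4% in cKO arrays (5.16% and 6.28%). The median absolute change was 0.0632 in embryo and 0.0992 in cKO arrays, against 0.199 and 0.207 over all kept probes. Without E13 cKO array 2 and E16 cKO array 3, 2 rose and 0 fell in cKO arrays, beside 18.6% of all kept probes. By scaling to a common median 1 rose and 2 fell in embryo (beside 19.3% of all kept probes, 9.83% higher and 9.48% lower) and 1 rose and 3 fell in cKO arrays (20.8%, 9.29% and 11.5%).

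Markers of cell types moved with the stage as well. Proliferation markers fell for 11 of 14 in embryo and 10 of 14 in cKO arrays (9 without the 2 cKO arrays), and those of intermediate progenitors for 5 of 6 and 3 of 6. Erythroid markers rose for 3 of 5 in embryo arrays (median 2.2 log2 units; summed levels 10.94 to 12.62 at E16 against 7.814 to 11.39 at E13) and 0 passed in cKO arrays (11.34 to 14.8 against 9.574 to 15.43). Choroid plexus markers fell for 1 of 3 in embryo and 3 of 3 in cKO arrays (median −1.98; 6.578 to 7.776 against 8.293 to 12.68; 2 without the 2 cKO arrays). Cortical neuron markers fell for 3 of 9 in embryo arrays, and 2 rose in cKO arrays (1 without the 2 cKO arrays). Interneuron markers fell for 2 of 6 in cKO arrays. Radial glia markers gave 1 rise and 1 fall of 8 in embryo arrays. In cKO arrays they gave 1 rise and 2 falls (1 and 1 without the 2 cKO arrays). The part of these markers in the stage results was not tested.

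Rps15a, a protein of the small-subunit body, rose in both. Its levels were 9.71, 10, 9.63, 9.77 and 10.29 log2 units in E16 embryo arrays, against a lowest, median and highest of 9.01, 9.45 and 9.80 in E13 embryo arrays. Of the 5 E16 embryo arrays, 2 lay above every E13 embryo array, and the others lay in the upper part of the E13 range. In E16 cKO arrays its lowest, median and highest levels were 9.79, 9.93 and 10.15, against 9.31, 9.82, 9.64, 9.13 and 9.25 in E13 cKO arrays. Of the 6 E16 cKO arrays, 4 lay above every E13 cKO array, while E16 cKO arrays 2 and 4 at 9.79 and 9.81 lay just below E13 cKO array 2 at 9.82. The change was 0.45 (SE 0.148, adjusted p = 0.032 by limma) in embryo and 0.50 (SE 0.148, adjusted p = 0.015) in cKO arrays. The call was lost without E13 embryo array 1, 2 or 6 or E16 embryo array 2 or 5 (changes 0.35 to 0.43, adjusted p 0.057 to 0.11), and in cKO arrays without E13 cKO array 4 (0.43, adjusted p = 0.054). It held without E13 cKO array 2 and E16 cKO array 3 together (0.588, adjusted p = 0.011).

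The other risers passed in cKO arrays only, and no difference between the genotypes passed. Rps25 had a lowest, median and highest of 11.79, 12.01 and 12.03 in E16 cKO arrays, against 11.70, 11.61, 11.49, 11.82 and 11.69 in E13 cKO arrays. E16 cKO array 1 lay within the E13 range and the other E16 cKO arrays above it, and the change was 0.32 (SE 0.0998, adjusted p = 0.023 by limma). Rpl22, a large-subunit protein required in mice for the development of αβ T cells, had a lowest, median and highest of 11.98, 12.14 and 12.32 in E16 cKO arrays, against 11.86, 11.97, 11.94, 11.88 and 11.83 in E13 cKO arrays. All E16 values were above all E13 values by a narrow gap, and the change was 0.25 (SE 0.0806, adjusted p = 0.026). In embryo arrays Rpl22 was at 0.22 with an adjusted p of 0.053. Rpl23 by a dimmer probe (ILMN_2742807) rose by 0.24 (adjusted p = 0.041), and Rps14, a small-subunit protein whose gene is lost in a human myelodysplastic syndrome, by 0.19 (adjusted p = 0.045). After scaling to a common median in place of quantile normalisation, Rps15a was the only probe called higher in either comparison, at 0.491 in embryo and 0.495 in cKO arrays. The other 4 cKO risers were then not called (adjusted p 0.14 to 0.68).

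These 4 calls also rested on single arrays. Rps25 was not called without E13 cKO array 3 (0.274, adjusted p = 0.074 by limma), and Rpl22 was not called without E13 cKO array 1 or 5 or E16 cKO array 3 or 4 (adjusted p 0.057 to 0.066). The Rpl23 probe kept its call only without E13 cKO array 2 or E16 cKO array 3, and Rps14 only without E16 cKO array 5; without any other cKO array their adjusted p was 0.052 to 0.13 and 0.06 to 0.1. Without E13 cKO array 2 and E16 cKO array 3 together, Rps25, Rpl22 and Rps14 had adjusted p of 0.075, 0.066 and 0.11.

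Fallers were mostly dimmer probes of genes whose brightest probe was not called. For Rpl31, which lies near the exit of the nascent chain, the probe ILMN_3073486 had 10.50, 10.43, 10.65, 10.49 and 10.95 in E16 embryo arrays, against a lowest, median and highest of 10.78, 11.08 and 11.23 in E13 embryo arrays. E16 embryo array 5 lay within the E13 range and the other 4 below it. The change was −0.44 (SE 0.125, adjusted p = 0.013 by limma), and the probe ILMN_1221124 changed by −0.31 (adjusted p = 0.04) in embryo and −0.39 (adjusted p = 0.0093) in cKO arrays. The brightest Rpl31 probe was at −0.08 in embryo and −0.01 in cKO arrays. The embryo call of ILMN_1221124 was lost by scaling (−0.298, adjusted p = 0.088) and without E13 embryo array 1, 3, 4 or 5 or E16 embryo array 1, 2, 3 or 4 (adjusted p 0.057 to 0.1). Its cKO call was lost without E13 cKO array 2 and E16 cKO array 3 together (−0.268, adjusted p = 0.085).

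For Rps24, a small-subunit protein mutated in human Diamond-Blackfan anaemia, the probe ILMN_2625060 had 8.77, 8.77, 8.64, 8.66 and 8.69 in E16 embryo arrays, against a lowest, median and highest of 8.93, 9.11 and 9.21 in E13 embryo arrays. No E16 value reached the E13 range, and the change was −0.40 (SE 0.108, adjusted p = 0.0089). The brightest Rps24 probe was at 0.05 in embryo and 0.04 in cKO arrays. Rpl21 fell in cKO arrays by 0.34 (adjusted p = 0.039; −0.345 by scaling), where the highest E16 cKO level, 7.55, lay under the lowest E13 cKO level, 7.61. That call was lost without E13 cKO array 1, 2, 3 or 4 or E16 cKO array 4 or 6 (adjusted p 0.054 to 0.11), and without E13 cKO array 2 and E16 cKO array 3 together (adjusted p = 0.063).

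**Figure D2:**
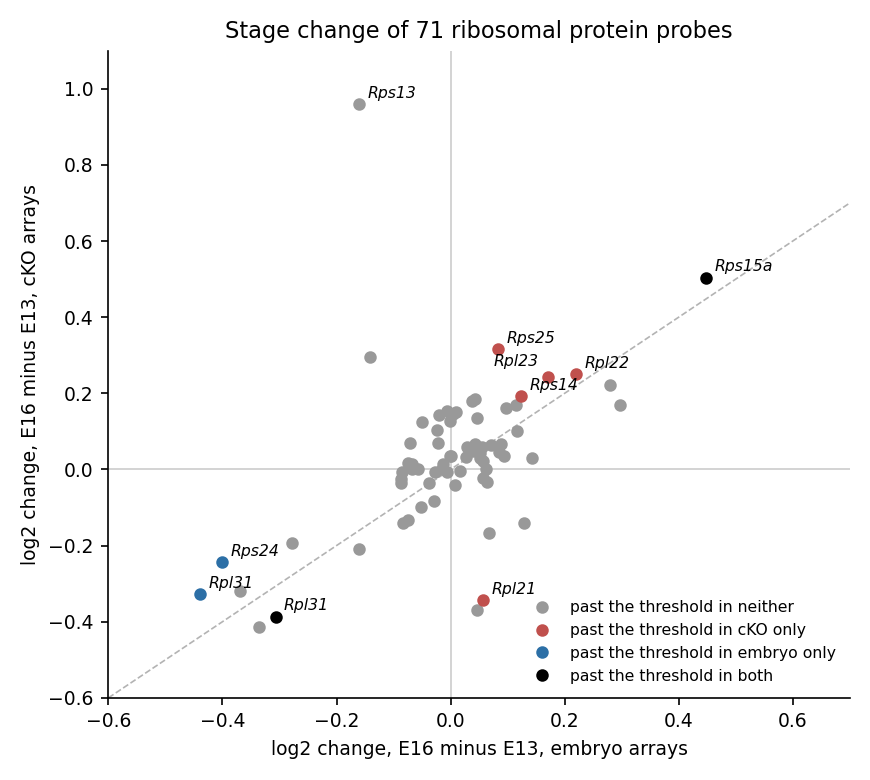
Each point is 1 of the 71 ribosomal protein probes, with its change between E16 and E13 embryo arrays on the x axis and between E16 and E13 cKO arrays on the y axis, both in log2 units. The 4 embryo calls and 7 cKO calls are coloured by comparison and named; most probes sit near 0 on both axes, and Rps15a lies at 0.45 and 0.50.

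No ribosomal protein probe passed the interaction test, which sets the stage change in cKO arrays against that in embryo arrays (0 of 71, beside 0.00976% of all kept probes, and 1 with an unadjusted p under 0.05 by limma). When E13 cKO array 2 and E16 cKO array 3 were left out, 0 passed (beside 0.293%) and 2 had an unadjusted p under 0.05. The interaction was 0.06 for Rps15a (95% interval −0.37 to 0.49), 0.23 for Rps25 (−0.06 to 0.52) and 0.03 for Rpl22 (−0.20 to 0.26). Rpl21 had the unadjusted p under 0.05, with an interaction of −0.40 (95% interval −0.75 to −0.05, adjusted p = 1.0). Between the 2 stage comparisons, which share no arrays, 47 of 71 probes (66.2%) had the same sign, beside 80.2% of all kept probes. Across probes Pearson's r was 0.501 and Spearman's rho 0.482, beside 0.868 and 0.801 over all kept probes. Leaving out the 2 largest cKO changes gave r = 0.646 over the ribosomal protein probes. Leaving out E13 cKO array 2 and E16 cKO array 3, 45 of 71 (63.4%) had the same sign, beside 77.7% of all kept probes, and r was 0.363 and rho 0.377, beside 0.83 and 0.75.

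P2 neurons were set against embryo arrays, a comparison of sorted postnatal cells with embryonic material that differs in age, sort and table at once. By quantile normalisation, 16 of 71 probes rose and 29 fell relative to E16 embryo arrays (63.4%), beside 69.3% of all kept probes (28.5% higher and 40.8% lower). With arrays scaled to a common median instead, 5 of 71 rose and 49 fell, beside 70.3% (26.4% higher and 44% lower). Relative to E13 embryo arrays 17 rose and 27 fell (62%), beside 71.5% (30% higher and 41.5% lower), and with the scaled arrays 7 of 71 rose and 49 fell, beside 72.3% (28.1% higher and 44.2% lower). Rps20, detected in P2 arrays alone, is 1 of the rises in each of these counts. All 29 falls against E16 and all 27 against E13 were called lower by both normalisations, while 5 of 16 and 7 of 17 rises were called higher by both. Ranges did not overlap for 12 probes higher and 21 lower against E16, beside 52.1% of kept probes (22.4% and 29.7%), and for 16 higher and 20 lower against E13, beside 55.4% (24.2% and 31.2%). The 2 comparisons share the P2 arrays.

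The median change of the 71 probes was −0.0691 against E16 and −0.0647 against E13, where all kept probes had −0.156 and −0.145. After scaling to a common median it was −0.473 and −0.444, where all kept probes had −0.233 and −0.214. In the 10% of kept probes with the highest level, which hold 50 of the 71, the median change against E16 was −0.133 by quantile normalisation and −0.403 by scaling. By quantile normalisation 26 of 71 (36.6%) exceeded 0.5 log2 units in size against E16, beside 58.7% of all kept probes. This share was not computed by scaling or for the brightest 10% of kept probes.

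Markers of other cells moved with the same comparison. All 7 microglia, 6 endothelial or pericyte and 3 oligodendrocyte markers kept were higher in P2 neurons than in E16 embryo arrays. All of them were detected in every P2 array, and in no embryonic group was a microglia or an endothelial marker detected in every array. The summed levels were 11.53 to 12.15 log2 units in P2 neurons, against 7.652 to 7.911 in E16 embryo arrays for microglia. They were 11.59 to 11.97 against 7.212 to 7.43 for endothelial cells and pericytes, and 10.23 to 13.6 against 8.115 to 8.668 for oligodendrocytes. All 9 cortical neuron markers kept were detected in every P2 array (15.09 to 15.35 against 15.53 to 15.86 in E16 embryo). Intermediate progenitor markers were lower for 6 of 6 (9.833 to 10.68 against 13.48 to 13.67), and 11 of 14 proliferation markers fell (11.29 to 12.63 against 12.88 to 13.16). Choroid plexus markers were higher for 2 of 3 (10.81 to 14.2 against 6.94 to 7.415), with Ttr, the transthyretin gene, at 7.96 log2 units. Interneuron markers were higher for 3 of 6 (11.38 to 13.25 against 8.64 to 9.198), and both telencephalon markers kept were lower (8.42 to 9.59 against 10.45 to 10.89). Radial glia markers were higher for 3 and lower for 3 of 8, cortical neuron markers for 4 and 4 of 9, and 0 of 5 erythroid markers passed against E16 while 3 were higher against E13. The part of these in the results below was not tested.

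**Figure D3:**
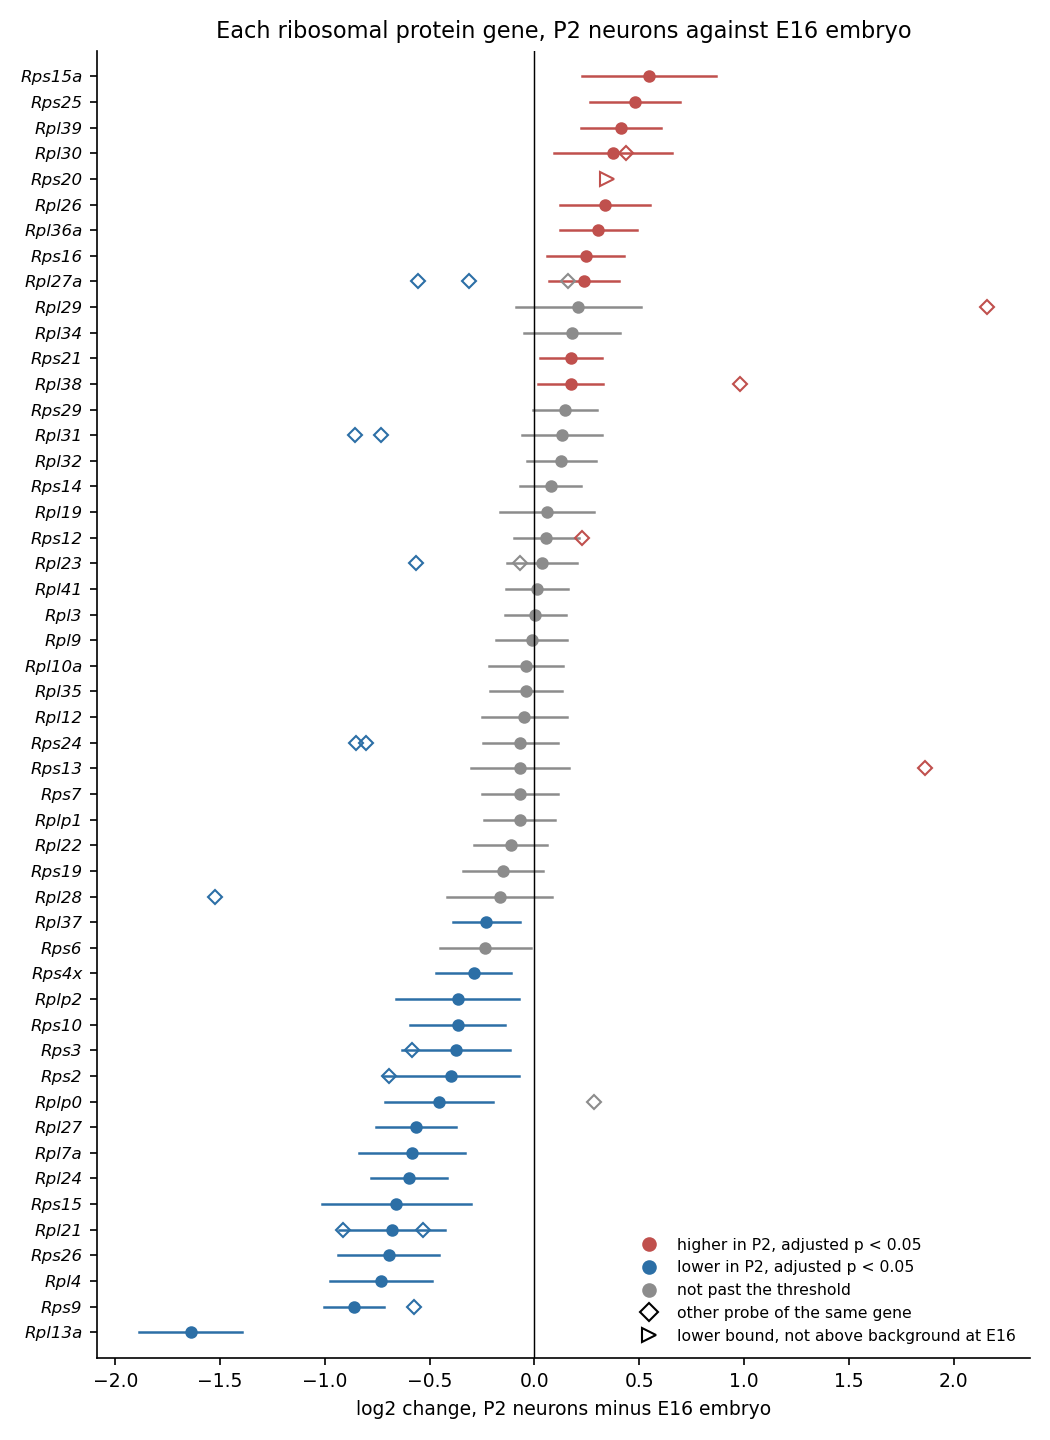
Changes of the ribosomal protein genes in P2 neurons relative to E16 embryo arrays in log2 units, by the brightest kept probe of each of 50 genes after quantile normalisation, with bars for 95% intervals. Rpl13a lies lowest at −1.64, Rps20 is drawn at its lower bound because no E16 embryo array held it above background, and 11 genes were called higher and 16 lower; after scaling to a common median 1 (Rps20) is called higher and 35 lower.

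In the small subunit 5 of 20 genes rose and 7 fell against E16 (6 and 6 against E13), and in the large subunit 6 of 30 rose and 9 fell (6 and 8 against E13), by quantile normalisation, beside 28.5% higher and 40.8% lower of all kept probes against E16 and 30% and 41.5% against E13. By scaling to a common median 1 rose and 15 fell in the small subunit (3 and 15 against E13) and 0 rose and 20 fell in the large (0 and 19 against E13), beside 26.4% and 44% of all against E16 and 28.1% and 44.2% against E13. Of the 16 probes higher against E16 by quantile normalisation, 5 were also called higher by scaling, 10 were not called, 5 of them above 0 and 5 below, and 1 was called lower. The other 21 probes of genes with several probes gave 5 rises and 13 falls in each comparison, with medians of −0.556 against E16 and −0.464 against E13.

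The deepest fall was that of Rpl13a, a large-subunit protein that in human monocytic cells leaves the ribosome to join a complex silencing inflammatory mRNAs. Its levels were 9.79, 9.76, 9.67, 9.91 and 9.81 log2 units in P2 neurons, against 11.51, 11.30, 11.50, 11.60 and 11.23 in E16 embryo arrays and a lowest, median and highest of 11.27, 11.56 and 11.76 in E13 embryo arrays. All P2 arrays lay far below all embryo arrays with no overlap. The change was −1.64 against E16 (SE 0.119, adjusted p = 4e-12 by limma), a level 3.12-fold lower, and −1.73 against E13 (adjusted p = 4.3e-13). Scaled to a common median it was −1.82 and −1.90.

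Rps9, which lines the path where mRNA enters the small subunit, had 13.84, 13.77, 13.93, 13.81 and 13.75 in P2 neurons, against 14.60, 14.60, 14.63, 14.80 and 14.78 in E16 embryo arrays. The groups were separate and each narrow, and the change was −0.86 (SE 0.0698, adjusted p = 3.7e-11 by limma; −0.77 against E13; −1.23 and −1.18 by scaling). The second Rps9 probe fell by 0.58 against E16 and 0.59 against E13 (−0.866 and −0.921 by scaling). Other proteins of the same entry site fell as well. Rps3 had changes of −0.37 and −0.58 by its 2 probes against E16 (adjusted p = 0.01 and 0.00023; −0.656 and −0.823 by scaling). Rps2 had −0.40 and −0.70 (adjusted p = 0.028 and 7.3e-06; −0.922 and −1.07 by scaling), with the brightest Rps2 probe not called against E13 (−0.25, adjusted p = 0.13) and called lower there by scaling (−0.785).

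Rps26, a small-subunit protein near the exit of the mRNA and a Diamond-Blackfan gene, had 13.12, 13.28, 13.24, 13.18 and 13.25 in P2 neurons, against 13.83, 13.86, 13.86, 14.05 and 13.94 in E16 embryo arrays. The groups did not overlap, and the change was −0.70 (adjusted p = 8.3e-06 by limma; −1.03 by scaling). Of the 6 Diamond-Blackfan genes with kept probes, 1 rose and 2 fell against each embryo group (33.3% lower, beside 40.8% of all kept probes against E16 and 41.5% against E13). By scaling 0 rose and 5 fell against each (83.3% lower, beside 44% and 44.2%). Rps26 and Rps10 (−0.37, adjusted p = 0.0045; −0.646 by scaling) were lower, and Rpl26 was higher by 0.34 by quantile normalisation (adjusted p = 0.0059) and not called by scaling, at 0.015. Rps24, Rps7 and Rps19 were not called by their brightest probes, with −0.07, −0.07 and −0.15, and all 3 were called lower by scaling, at −0.473, −0.484 and −0.504.

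Among large-subunit genes, Rpl4, which lines the exit tunnel, had 9.27, 10.08, 9.83, 10.05 and 9.84 in P2 neurons, against 10.48, 10.41, 10.52, 10.66 and 10.66 in E16 embryo arrays. All P2 arrays were lower, with P2 array 1 the lowest, and the change was −0.73 (adjusted p = 4.9e-06 by limma; −0.925 by scaling). Rpl24, mutated in the Belly spot and tail mouse, fell by 0.60 (adjusted p = 1.3e-06; −0.85 by scaling). Rpl7a and Rpl27 fell by 0.58 and 0.57 (adjusted p = 0.00016 and 6.7e-06; −0.808 and −0.885 by scaling). Rpl21 fell by all 3 of its probes, by 0.91, 0.68 and 0.53 against E16 and by 0.87, 0.62 and 0.46 against E13 (−0.803, −0.605 and −0.426 against E16 by scaling).

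The stalk genes Rplp0, Rplp1 and Rplp2 were at −0.46, −0.07 and −0.37 against E16 by quantile normalisation, where Rplp1 was not called. By scaling they were at −0.597, −0.639 and −0.685 against E16 and −0.508, −0.581 and −0.646 against E13, all called lower. Rplp0 had 8.87, 9.18, 9.06, 9.33 and 9.17 in P2 neurons, against 9.62, 9.68, 9.34, 9.66 and 9.59 in E16 embryo arrays. P2 array 4 and E16 embryo array 3 nearly met and did not overlap, and the change was −0.46 (SE 0.126, adjusted p = 0.0024 by limma; −0.40 against E13, adjusted p = 0.0046). The dim second Rplp0 probe had a change of 0.29 that did not pass, and the mean of both probes gave −0.0847. Rplp1 had 14.82, 15.09, 14.99, 14.99 and 14.78 in P2 neurons, against 14.97, 14.94, 15.01, 15.05 and 15.04 in E16 embryo arrays. The ranges overlapped and the change of −0.07 did not pass (adjusted p = 0.46).

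Rplp2 had 13.50, 12.79, 13.74, 13.91 and 13.79 in P2 neurons, against 13.92, 13.86, 13.89, 13.93 and 13.97 in E16 embryo arrays. P2 array 2 lay far under the other P2 arrays, whose highest value reached the embryo range. The change of −0.37 (SE 0.143, adjusted p = 0.025 by limma) became −0.177 (adjusted p = 0.13) without P2 array 2, and the change of −0.30 against E13 became −0.114 (adjusted p = 0.31). Against E13 the call was also lost without P2 array 1 or E13 embryo array 1, 2, 3 or 5 (adjusted p 0.067 to 0.1). Fitted on only the groups compared, it was not called in either comparison (adjusted p 0.098 and 0.14).

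Rps25 and Rps15a were among the risers at ordinary signal levels, and both depended on the normalisation against E16. Rpl30 was called higher by both of its probes as well, by quantile normalisation. Its probes were at 0.375 and 0.435 against E16, and at 0.385 and 0.430 against E13. By scaling its brightest probe was not called higher in either comparison, since 0 of the 30 large-subunit genes were. The Rpl30 probe ILMN_2878424 was dim, with a mean level of 8.32. Rps25 had 12.41, 12.09, 12.22, 12.11 and 12.30 in P2 neurons, against 11.87, 11.70, 11.51, 11.93 and 11.73 in E16 embryo arrays. All P2 arrays were higher. The change was 0.48 against E16 (SE 0.104, adjusted p = 0.00023 by limma), a level 1.39-fold higher, and 0.56 against E13 (adjusted p = 1.7e-05). Scaled to a common median it was 0.234 and not called against E16 (adjusted p = 0.076), and 0.332 and called against E13.

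Rps15a had 10.57, 10.73, 10.20, 10.37 and 10.26 in P2 neurons, against 9.71, 10, 9.63, 9.77 and 10.29 in E16 embryo arrays. P2 arrays 3 and 5 lay just under the highest E16 embryo array, and all P2 arrays lay above every E13 embryo array (highest 9.80). The change was 0.55 against E16 (SE 0.155, adjusted p = 0.0029) and 0.99 against E13 (adjusted p = 1.3e-06). Scaled to a common median it was 0.331 against E16 (adjusted p = 0.066), not called, and 0.821 against E13, called. With the stage results above, its level by quantile normalisation was lowest at E13, higher at E16 and highest in P2 neurons.

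**Figure D4:**
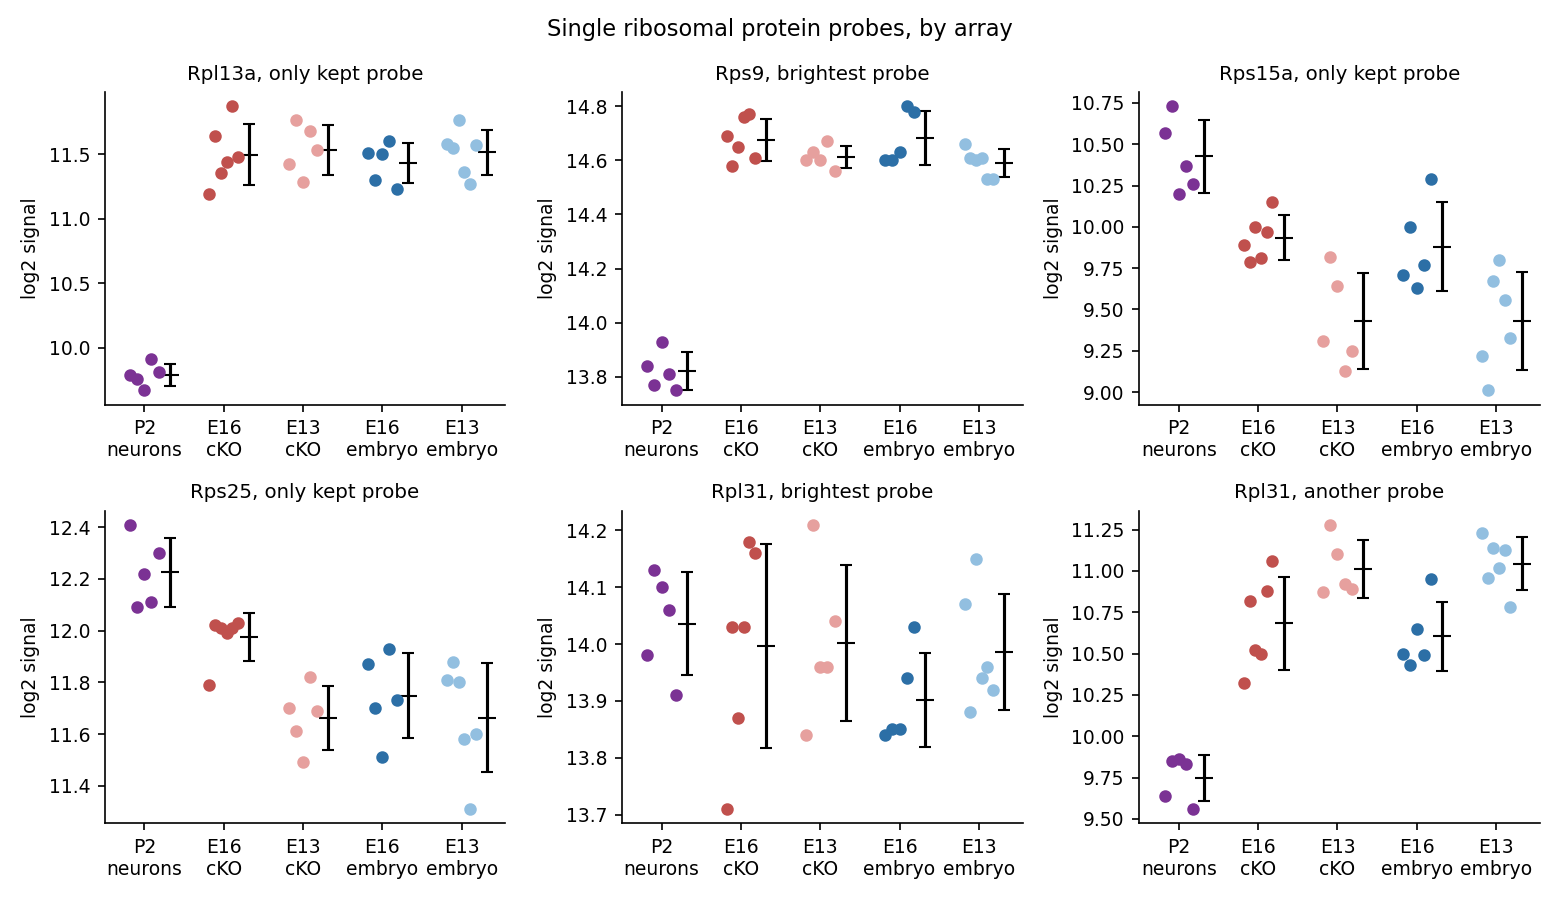
Level of 6 probes in each of the 27 arrays in log2 units after quantile normalisation, with groups along the x axis in the order P2, E16 cKO, E13 cKO, E16 embryo and E13 embryo. The P2 arrays lie below all others for Rpl13a, Rps9 and the Rpl31 probe ILMN_3073486 and above the E16 embryo arrays for Rps25, while Rps15a overlaps E16 embryo and the brightest Rpl31 probe overlaps all groups.

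Of 3 genes reported to act on the translation of particular mRNAs, Rps25 (above) stayed above 0 by both normalisations. The brightest probes of Rpl38 and Rpl10a changed their call with the normalisation. Rpl38 had 14.72, 14.74, 14.78, 14.80 and 14.69 in P2 neurons, against 14.53, 14.58, 14.66, 14.45 and 14.65 in E16 embryo arrays. All P2 arrays were higher by a narrow gap. The change was 0.17 by quantile normalisation (SE 0.0757, adjusted p = 0.045), and −0.304 by scaling (adjusted p = 0.037), so that the gene was called in opposite directions. It also lost its call without P2 array 1, 2, 3 or 4 or E16 embryo array 1, 2 or 4 (adjusted p 0.052 to 0.12). The dimmer Rpl38 probe had 9.63, 9.42, 9.51, 9.68 and 9.70 in P2 neurons, against 8.29, 9.02, 8.28, 8.71 and 8.73 in E16 embryo arrays. That probe was higher in every P2 array, with 0.98 (SE 0.153, adjusted p = 3.1e-06 by limma) by quantile normalisation and 0.847 by scaling, and with 1.26 and 1.14 against E13. Rpl10a was at −0.04 by quantile normalisation, with overlapping ranges of 13.99 to 14.30 in P2 neurons and 14.11 to 14.42 in E16 embryo arrays, and was called lower at −0.466 by scaling.

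The 3 X-linked genes also parted. Rps4x had 13.73, 13.87, 13.99, 14.13 and 13.87 in P2 neurons, against 13.99, 14.20, 14.21, 14.29 and 14.37 in E16 embryo arrays. The ranges overlapped in P2 arrays 3 and 4, and the change was −0.29 (SE 0.086, adjusted p = 0.0042 by limma; −0.685 by scaling). Rpl39, a short protein of the exit tunnel, had 14.24, 14.25, 14.21, 14.44 and 14.26 in P2 neurons, against 13.81, 13.88, 13.81, 13.83 and 13.99 in E16 embryo arrays. All P2 arrays were higher by quantile normalisation, by 0.41 (SE 0.0936, adjusted p = 0.00035), and the change was −0.00115 by scaling.

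Rpl36a had 12.74, 12.59, 12.81, 12.84 and 12.61 in P2 neurons, against 12.44, 12.46, 12.32, 12.45 and 12.39 in E16 embryo arrays. The groups were separate by quantile normalisation, with a change of 0.31 (SE 0.0895, adjusted p = 0.0038), and the change was 0.0195 by scaling and not called. Against E13 both were higher by quantile normalisation (Rpl39 0.39, Rpl36a 0.28) and slightly below 0 by scaling (−0.0418 and −0.0326).

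Rps20 passed the detection filter through the P2 arrays alone, so its difference was bound to appear. Its levels were 5.62, 5.97, 5.91, 6.58 and 6.46 log2 units in P2 neurons, against 4.64, 4.56, 4.67, 4.50 and 4.64 in E16 embryo arrays, where the probe was not well above background in any array. All P2 arrays were detected and higher. The measured means were 6.11 ± 0.40 in P2 neurons (SD, n = 5), 4.60 ± 0.07 in E16 embryo (n = 5) and 4.56 ± 0.11 in E13 embryo arrays (n = 6). Taken against the lowest detected signals of the embryo arrays, P2 neurons were at least 1.27-fold higher than E16 embryo and at least 1.31-fold higher than E13 embryo arrays. Rps20 is the 1 ribosomal protein probe among the 2050 kept probes with the lowest mean levels. Their median change in P2 neurons was 0.401 log2 units against E16 and 0.402 against E13 by quantile normalisation. The bounds do not exceed these medians, so they do not set Rps20 apart from probes this dim. Its measured changes, 1.51 and 1.55, were larger but rest on embryo levels not well above background.

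Where a gene had several kept probes, they often disagreed between P2 and embryo arrays. Of 15 such genes, 6 had all probes called the same way against E16, 9 had only some of their probes called, and 5 had probes of opposite sign. The range between probes of 1 gene had a median of 0.743 log2 units against E16 and 0.724 against E13. The same median was 0.105 between stages in embryo and 0.158 in cKO arrays. Rpl27a, mutated in the Sooty foot ataxia mouse, was called both ways: its brightest probe had 0.24 (adjusted p = 0.012) by quantile normalisation and −0.218, not called, by scaling, while 2 others had −0.56 and −0.31 (adjusted p = 0.0037 and 0.029; −0.476 and −0.518 by scaling).

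Rpl31 showed the split most plainly. Probe ILMN_3073486 had 9.64, 9.85, 9.86, 9.83 and 9.56 in P2 neurons, against 10.50, 10.43, 10.65, 10.49 and 10.95 in E16 embryo arrays. The brightest probe had 13.98, 14.13, 14.10, 14.06 and 13.91 in P2 neurons, against 13.84, 13.85, 13.85, 13.94 and 14.03 in E16 embryo arrays. The first was lower in every P2 array, at −0.85 against E16 (SE 0.131, adjusted p = 2.3e-06 by limma) and −1.29 against E13, and the second overlapped, at 0.13 (adjusted p = 0.21) and 0.05. By scaling the first was at −1.04 and −1.47, and the second at −0.244, not called, against E16 and at −0.348, called lower, against E13. The third Rpl31 probe fell by 0.73 against E16 and 1.04 against E13 (−0.922 and −1.22 by scaling).

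Rps24 probe ILMN_2625060 had 7.68, 7.84, 7.87, 8.13 and 7.76 in P2 neurons, against 8.77, 8.77, 8.64, 8.66 and 8.69 in E16 embryo arrays. It was lower in every P2 array, at −0.85 against E16 (adjusted p = 2.5e-07) and −1.25 against E13, and the brightest Rps24 probe was at −0.07 and −0.01. By scaling these were −0.884 and −1.27 for the first probe, and −0.473 and −0.468, called lower, for the brightest. The 2 dimmer Rpl31 probes and this Rps24 probe were also the 3 called lower in E16 than in E13 embryo arrays.

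Rpl28 and Rpl29 split in opposite ways. The dim Rpl28 probe had 5.65, 5.39, 5.78, 5.97 and 5.59 in P2 neurons, against 7.28, 6.94, 6.96, 7.58 and 7.25 in E16 embryo arrays. It was lower in every P2 array and detected in 3 of 5 of them, at −1.53 against E16 (SE 0.159, adjusted p = 4e-09 by limma) and −1.86 against E13, while the bright Rpl28 probe had −0.16 (adjusted p = 0.23). By scaling the dim probe was at −1.43 against E16 and the bright one at −0.49, called lower. The dim probe of Rpl29, whose loss makes mice small, had 8.89, 9.46, 9.44, 8.61 and 8.93 in P2 neurons, against 7.16, 6.89, 6.47, 7.18 and 6.82 in E16 embryo arrays.

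That Rpl29 probe was higher in every P2 array than in every E16 embryo array, at 2.16 (SE 0.304, adjusted p = 6.4e-07 by limma). Against E13 it was at 1.79, and only 2 P2 arrays lay above every E13 embryo array. Without E13 embryo array 2, which lay at 9.16, the change against E13 was 2.17. By scaling it was at 2.13 against E16. The bright Rpl29 probe had 0.21 and did not pass, nor by scaling (0.00531). The dimmest Rps13 probe had 8.49, 8.70, 8.49, 8.45 and 8.36 in P2 neurons, against 5.19, 7.28, 5.11, 7.57 and 8.03 in E16 embryo arrays. The E16 embryo values were widely scattered and all lower, with a change of 1.86 (SE 0.521, adjusted p = 0.0026), and the bright Rps13 probe had −0.07. By scaling they were at 1.81 and at −0.356, called lower.

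**Figure D5:**
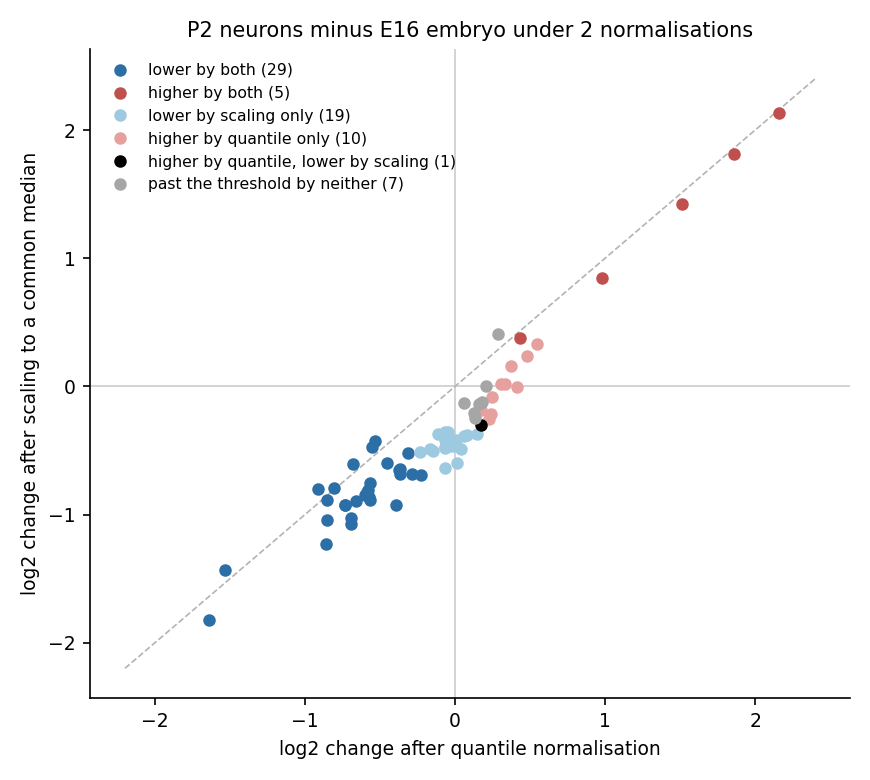
Change of each of the 71 ribosomal protein probes in P2 neurons relative to E16 embryo arrays in log2 units, by quantile normalisation on the x axis and by scaling to a common median on the y axis, coloured by call. The 29 probes lower by both and 5 higher by both lie along the diagonal, 19 are lower by scaling only, 10 higher by quantile normalisation only, 1 is called in opposite directions and 7 are not called by either; the point for Rps20 has no measured embryo level behind it.

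Ribosomal proteins and paralogs that the naming rule left out were read from fixed lists. Rps3a1, a small-subunit protein, was higher in P2 neurons by 1.02 against E16 (SE 0.244, adjusted p = 0.00063 by limma) and by 1.34 against E13, and by 0.803 and 1.15 after scaling. Among 5 paralogs against E16, Rpl22l1, the paralog of Rpl22, rose by 1.46 (1.43 by scaling), and Rpl7l1 and Rps27l, a p53 target, fell by 1.29 and 0.79 (−1.43 and −1.03 by scaling). Rps4l rose by 1.15 (adjusted p = 0.013; 1.1 by scaling), and Rpl36al, a retrotransposed copy of Rpl36a, rose by 0.57 by quantile normalisation and had 0.281 by scaling, not called. Against E13 2 of the 5 rose and 2 fell (1 and 2 by scaling). Between stages, Rps4l fell in embryo arrays by 1.17 (adjusted p = 0.029), and 0 of 5 passed in cKO arrays by quantile normalisation, where Rps27l was called lower by scaling (−0.389, adjusted p = 0.027).

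Other genes with TOP mRNAs were split as well. The genes named from here on kept their direction and their call by scaling to a common median, and those named for cKO arrays also without E13 cKO array 2 and E16 cKO array 3. Of 13 kept, 2 rose (15.4%) and 5 fell (38.5%) against E16, beside 28.5% and 40.8% of all kept probes. Against E13 3 rose (23.1%) and 7 fell (53.8%), beside 30% and 41.5%. By scaling 2 rose and 7 fell against E16 (53.8% lower, beside 44% of all) and 3 rose and 10 fell against E13 (76.9%, beside 44.2%). Tpt1, which encodes translationally controlled tumour protein, rose by 0.99 and Pabpc1, the poly(A)-binding protein, by 0.79. The Tpt1 probe was dim and its ranges overlapped, at 6.67 to 8.07 log2 units in P2 neurons and 6.09 to 6.72 in E16 embryo arrays. Hnrnpa1, a splicing regulator, fell by 0.51 and the histone chaperone Nap1l1 by 0.49 (adjusted p = 0.00094 and 8e-05 by limma). Between stages Eif4b rose and Nap1l1 fell in both genotypes, by 0.42 and 0.46 in embryo and by 0.48 and 0.40 in cKO arrays.

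Of 25 initiation factors kept, 6 rose (24%) and 14 fell (56%) against E16, beside 28.5% and 40.8% of all kept probes, and 7 rose (28%) and 14 fell (56%) against E13, beside 30% and 41.5%. By scaling 5 rose and 15 fell against E16 and 5 and 16 against E13 (60% and 64% lower, beside 44% and 44.2%). The cap-binding protein Eif4e rose by 1.25 (adjusted p = 0.0095 by limma) and Eif1a by 1.13, while Eif4e2, a cap-binding homolog that represses translation, fell by 1.15 (adjusted p = 8.7e-07). Eif4e2 also fell between E13 and E16, by 0.48 in embryo and 0.52 in cKO arrays. Between stages initiation factors gave 1 rise and 2 falls in embryo arrays (8% lower, beside 10.7% of all) and 1 rise and 3 falls in cKO arrays (12%, beside 11.3%; 1 and 4 without the 2 cKO arrays). By scaling they gave 0 rises and 2 falls in embryo arrays and 0 rises and 7 falls in cKO arrays (28% lower, beside 11.5%).

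Of 35 genes for ribosome biogenesis, 10 rose (28.6%) and 17 fell (48.6%) against E16, beside 28.5% and 40.8% of all kept probes, and 9 rose (25.7%) and 16 fell (45.7%) against E13, beside 30% and 41.5%. By scaling 8 rose and 19 fell against E16 and 8 and 18 against E13 (54.3% and 51.4% lower, beside 44% and 44.2%). Pes1, needed to process the large-subunit RNA, fell by 1.12, while nucleolin (Ncl) and Utp14a, which acts on the small-subunit precursor, rose by 1.02 and 1.07. Between stages 2 rose in embryo arrays (5.71%, beside 9.72% of all) and 0 passed in cKO arrays, where 1 was called lower by scaling. Ubtf, which drives RNA polymerase I, rose by 0.44 (adjusted p = 0.0053) and Nob1, a nuclease of the small-subunit precursor, by 0.27 (adjusted p = 0.016).

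Of 73 mitochondrial ribosomal protein genes, 8 rose (11%) and 25 fell (34.2%) against E16, beside 28.5% and 40.8% of all kept probes, and 5 rose (6.85%) and 37 fell (50.7%) against E13, beside 30% and 41.5%. By scaling 4 rose and 40 fell against E16 and 2 and 48 against E13 (54.8% and 65.8% lower, beside 44% and 44.2%). Mrpl34 and Mrps5 fell by 1.28 and 1.1, and Mrps27 rose by 1.04 (adjusted p = 0.028). Between stages 0 rose and 7 fell in embryo arrays (9.59% lower, beside 10.7% of all) and 0 rose and 16 fell in cKO arrays (21.9%, beside 11.3%), with medians of −0.15 and −0.171. The cKO count was 9 without E13 cKO array 2 and E16 cKO array 3. The largest were Mrpl39 at −0.57 in embryo (adjusted p = 0.01) and Mrpl45 at −0.74 in cKO arrays (adjusted p = 0.0032).

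Regulators of ribosome production gave 2 rises (11.8%) and 10 falls (58.8%) of 17 against E16, with the same counts by scaling, beside 28.5% and 40.8% of all kept probes (26.4% and 44% by scaling). Against E13 they gave 2 rises and 8 falls (47.1%, beside 41.5%), and 2 and 10 by scaling (58.8%, beside 44.2%). Eif4ebp1, an inhibitor of cap-dependent initiation, rose by 1.79, while its relative Eif4ebp2 and the Myc antagonist Mxd1 fell by 1.48 and 1.5. Between stages Mycl, a member of the Myc family, rose by 0.75 in embryo and 0.73 in cKO arrays, and Mxi1 rose by 0.50 in cKO arrays. In the comparisons of cKO with embryo arrays, 0 genes of these pathway lists passed at E13 or E16, also without E13 cKO array 2 and E16 cKO array 3. The markers of other cells that were higher in P2 neurons moved with all these lists, and their part was not tested.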

How the data were processed

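Total RNA was hybridised as biotin-labelled cRNA to Illumina mouse BeadChips, 27 arrays in 5 groups. Titles gave the groups, because the age field of the E16 embryo samples also reads E13. Per the file headers, the deposited intensity values are non-normalised average signals per probe in 3 tables; they ran from −50.8 to 48265.8, so background had been subtracted. A detection p-value per probe and array was deposited beside each signal. The authors' deposited series matrix holds log2 values of 12377 probes whose columns share 1 median, 8.94693, with the tool not given in the sources used here.

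Signals were background-corrected with limma 3.58.1 in R 4.3.3 (normexp by detection p, offset 16), quantile normalised over all arrays and put on the log2 scale. The 20498 of 45281 probes kept had detection p under 0.01 on 5 or more arrays. By the platform annotation 34885 probes have 1 symbol, 18 several and 10378 none. All 55 ribosomal protein symbols matched RefSeq. One linear model with 1 mean per group gave 7 comparisons, moderated by empirical Bayes, with Benjamini-Hochberg adjustment over all kept probes and calls at an adjusted p under 0.05. The fit was tested on simulated data with changes planted in the E16 embryo arrays and no other group difference. Between E16 and E13 embryo arrays it found 0 of 50 planted changes of 0.25 log2 units and 16 of 50 of 0.5. It found 45 of 50 changes of 1 and 50 of 50 of 2, and 5 of its 116 calls were false. The number of arrays limits the precision, and intervals are 95%.

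Ribosomal protein genes, gene lists and rules were chosen with earlier results of these data known. Genes named are, per comparison, the 5 largest rises and falls, the stalk, selective translation and X-linked lists, passing paralogs and up to 3 passing genes of each pathway list; others were chosen after their values were seen. The lists of Rpl5 with Rpl11 and of ubiquitin fusions had no kept probe. Alternatives were scaling to a common median, other probe choices and filters, the series matrix and leaving out arrays. Figures were drawn with matplotlib 3.10.9.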

Additional observations from a re-analysis of the deposited data

Results flagged for a closer look

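Among the levels of 25 named probes (22 genes) in 130 groups of arrays, 8 groups held 1 array whose gap to its neighbour was large for the group's range by Dixon's test; chance gives about 1 in 20 groups. Rpl39 was 14.44 log2 units in P2 array 4, and 14.21 to 14.26 in the other P2 arrays. The dim Rpl29 probe was 9.16 in E13 embryo array 2, and 6.69 to 7.17 in the other E13 embryo arrays; the bright Rpl29 probe was also highest there, at 12.31. In E16 cKO array 1, Rps25 was 11.79 (11.99 to 12.03 in the others) and Rpl36a was 12.18 (12.54 to 12.57). Rps14 was 14.23 in E16 cKO array 5 (14.43 to 14.52). In E16 embryo arrays, Rplp0 was 9.34 in array 3 (9.59 to 9.68), the Rpl23 probe ILMN_2742807 was 13.76 in array 4 (13.83 to 13.84) and Rpl10a was 14.42 in array 5 (14.11 to 14.17).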

How the results depend on the processing

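The counts at 0 in both genotype comparisons and in the interaction stayed at 0 under every alternative run. Counts and medians moved in 46 of 252 cases. Named genes reversed in 15 of 1026 cases, lost their call in 45 and gained one in 6. When 1 array was left out, named genes lost their call in 58 of 1103 cases. These cases include fixed-list genes that had no call to lose. With scaling to a common median, the brightest probes of Rpl38 (−0.304 against E16, −0.226 against E13), Rpl39 (−0.00115, −0.0418), Rpl36a (−0.0326 against E13) and Rpl10a (−0.378 against E13) turned. The medians became −0.473 (P2 against E16), −0.444 (against E13), −0.0882 (stage in cKO) and −0.0682 (interaction), with 5 higher and 49 lower against E16, 7 and 49 against E13, and 1 higher for stage in cKO. Scaling to the median of other genes gave Rpl38 −0.302 and −0.226, Rpl39 −0.042, Rpl36a −0.0328, Rpl10a −0.379, medians of −0.471, −0.445, −0.0888 and −0.0673, and the same counts. The series matrix gave Rpl39 −4.11 against E16 and −4.12 against E13 (it holds 2 P2 values far below the others), medians of −0.309 and −0.298, 8 probes higher in each P2 comparison, 2 higher for stage in embryo and 5 lower for stage in cKO. Whether samples of the same number belong together is not given, and the main model did not pair them. In the matrix, deviations of same-numbered E16 cKO and embryo samples correlated over 0.1 in 4 of 5 pairs (r 0.0623 to 0.509). At E13 this held for 3 of 5 pairs (r −0.21 to 0.395), and 3 samples matched their own number best at each stage. In the stage and P2 comparisons 0 to 2 of 5 pairs correlated over 0.1 (r −0.219 to 0.271), and 0 to 3 matched best. With the number as a replicate block the matrix gave Rpl39 −4.11 and −4.10, medians of −0.309 and −0.339, 8 higher in each P2 comparison and 0 higher for stage in embryo. With 1 probe per gene in the whole table, 17 fell against E16 and 14 against E13, 2 rose and 0 fell for stage in embryo and 1 fell in cKO; the mean of a gene's probes gave 2 and 1 in embryo and 0 falls in cKO. Probes detected in every array of a group, limma's trend and robust settings, and tables processed separately each gave 2 rises for stage in embryo. No filter gave 1 fall for stage in cKO. Only the groups compared gave 0 rises in embryo, and 2 rises and 0 falls in cKO. Without E13 cKO array 2 and E16 cKO array 3, 2 rose and 0 fell for stage in cKO. The cause was not tested. Leaving out 1 array at a time, P2 counts ran from 13 to 16 higher and 27 to 30 lower against E16, and 15 to 18 and 25 to 30 against E13. Stage counts ran from 0 to 2 and 2 to 3 in embryo and from 2 to 4 and 1 to 6 in cKO arrays. Medians ran from −0.0855 to −0.0561 (P2 against E16), −0.073 to −0.0137 (against E13), −0.0106 to 0.0304 (stage in embryo), 0.0131 to 0.055 (stage in cKO), −0.0248 to 0.0297 (cKO at E13), 0.0122 to 0.0631 (cKO at E16) and −0.00154 to 0.0556 (interaction). A block for the chip was not run, since the column names give no chip, and separate tables allow only the stage comparisons and the interaction. For dim probes, signal over background limits what can be seen.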

Other observations

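The deposited series matrix held 49 of the ribosomal protein probes and lacked 22 of those kept here. Of the 22, 18 had a detection p under 0.05 in all 27 arrays, the condition that every probe in the matrix meets, and 16 of these lay at the top of the array, with mean levels of 14.1087 to 15.0773 log2 units. The other 2 were the dim Rpl29 probe (7.39) and the dim Rpl30 probe (8.32).

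In the same matrix 25 values at 13 of 12377 probes lay more than 6 log2 units below the probe's own median, and 5 of them belonged to ribosomal protein probes. Rpl39 stood at 2.70 and 3.34 in P2 replicates 4 and 5, where the probe's median was 13.90 and the raw signals in the P2 table ran from 18023.6 to 33168.7. The Rps2 probe ILMN_2946616 stood at 3.34 in E13 embryo replicate 3 and at 2.24 in E13 cKO replicate 4, with a median of 14.15 and raw signals of at least 15109.2. Rps7 stood at 3.17 in E16 cKO replicate 6, with a median of 14.22 and raw signals from 10178.7 to 23730.3.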
